A study of Mus musculus with 6 samples.

Results

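The immunoproteasome and peptide-loading genes form a group of 10 genes that prepare peptides for presentation on MHC class I molecules. They were Psmb8, Psmb9 and Psmb10, Psme1 and Psme2, Tap1 and Tap2, Tapbp and Tapbpl, and Erap1, chosen by name for these functions. All 10 were present among the 24346 genes of each library, and all 10 met the filter on low values, which 11429 genes met. RNA was sequenced from live stromal cells sorted from the colon of 12 week old mice that had been given 1% dextran sulfate sodium (DSS), an agent that injures the gut epithelium and brings on colitis. The sort took cells with Podoplanin and without CD45, EpCAM or CD31. All 6 mice were homozygous for floxed Il10ra, the gene of the interleukin-10 receptor chain that binds the cytokine. The floxed group comprised mice 8, 9 and 43, without cre. The Pdgfra-cre group comprised mice 13, 23 and 25, which also carried a cre recombinase driven by Pdgfra, a gene of fibroblasts. Recombination is therefore limited to cells that express Pdgfra, or whose precursors did, while the sort was for Podoplanin. Mice with cre and unfloxed alleles, and mice without DSS, were not analysed here.

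Cells display fragments of their own proteins to CD8 T cells on MHC class I molecules. The proteasome, a barrel-shaped protease, cuts proteins into peptides, and interferons induce 3 catalytic subunits that take the place of the constitutive ones in newly assembled barrels, which gives the immunoproteasome. The PA28 activator caps the barrel and opens it. The transporter associated with antigen processing (TAP) moves peptides into the endoplasmic reticulum, where an aminopeptidase trims them and tapasin helps to load them onto class I molecules. Stromal cells, like most nucleated cells, express class I, and interferon gamma is the classical inducer of this machinery, with type I interferons acting on many of the same genes.

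The genes are clustered in the genome (mm10 coordinates, GENCODE M21). Psmb9 (chromosome 17, 34181987 to 34187764), Tap1 (34187553 to 34197225), Psmb8 (34197721 to 34201454) and Tap2 (34203527 to 34216321) lie side by side within the MHC region. Tapbp lies on the same chromosome at 33915899 to 33929292. Psme1 (chromosome 14, 55578123 to 55581529) and Psme2 (55587441 to 55591113) are near neighbours as well. Psmb10 is on chromosome 8 (105935735 to 105938444), Tapbpl on chromosome 6 (125223933 to 125231860) and Erap1 on chromosome 13 (74639568 to 74693201). The library preparation does not keep the strand, so reads where genes overlap on opposite strands cannot be told apart. Psmb9 and Tap1 share 212 bases of exon, which is 5.79% of the annotated exon length of Psmb9 and 3.87% of that of Tap1. Antisense or neighbouring genes cover larger shares of Tapbp (Gm19412, 24.9%), Psmb8 (Gm20496, 14.7%), Tap2 (Gm15821, 14.1%) and Erap1 (Cast, 11.5%).

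Values are FPKM, by definition fragment counts divided by transcript length in kilobases and by mapped fragments in units of 1000000. Levels can therefore be compared between genes. How the libraries were scaled to each other is not given in the sources used here. The most frequent low values put 1 read per kilobase at about 0.108 to 0.136 FPKM, sought only between 0.08 and 0.2. By this rough estimate the lowest member value, 12.5 FPKM for Tap1 in floxed library 43, rests on about 101 reads per kilobase. Il10ra was listed at 0 in 5 of 6 libraries and at 0.418 FPKM in floxed library 43, so these values could not show its deletion. Of the fibroblast markers, Pdpn lay between 78.3 and 124 FPKM. Pdgfra had 178, 186 and 200 FPKM in floxed libraries 8, 9 and 43 and 155, 120 and 174 in Pdgfra-cre libraries 13, 23 and 25, lower in each Pdgfra-cre mouse and lowest in library 23 (log2 fold change -0.34, limma adjusted p = 0.411). Pdgfra was the only 1 of the 8 markers with a log2 fold change below 0, and 7 were above it. The groups did not overlap for Vim (0.37) and Dcn (0.21), both higher in Pdgfra-cre, as for 8.07% of all tested genes. The summed level of the 8 markers was 16339 to 19660 in floxed and 19702 to 20030 in Pdgfra-cre libraries. Library 23 of the Pdgfra-cre group held more neutrophil transcripts than the others. The summed FPKM of 8 neutrophil markers was 179 there, 1.03 to 11 in floxed libraries, 18 in library 13 and 11.1 in library 25. S100a8 (94.7) and S100a9 (63.9) made up most of the sum in library 23, where Ngp, Camp and Ltf were at 0. In bulk RNA, fewer cells of a type and less RNA per cell cannot be told apart.

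The antigen-processing genes had higher mean levels in the Pdgfra-cre group, in every case with a wide spread between its 3 mice. The log2 fold change was above 0 for 10 of 10, as for 50.3% of all tested genes, and the median over the 10 was 0.53 against 0.0012 over all tested genes. The values were Tap1 1.87, Psmb9 1.29, Psmb8 0.79, Tapbpl 0.75, Tapbp 0.53, Psmb10 0.52, Tap2 0.50, Psme2 0.47, Psme1 0.35 and Erap1 0.34. Fold changes are on the log2(FPKM + 1) scale, which understates differences at low FPKM. None of the 10 passed limma's test at an adjusted p of 0.05, and neither did any other gene (0% of 11429). At an unadjusted p under 0.05, 4 of the 10 were higher (Tap1, Psmb9, Tapbp and Tapbpl), as were 5.47% of all tested genes, and 0 were lower, as were 5.49%. For 5 of the 10 the groups did not overlap, all with higher values in Pdgfra-cre (those 4 and Psmb8), against 8.07% of all tested genes. The 10 genes had been picked with earlier results of these libraries known.

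**Figure D1:**
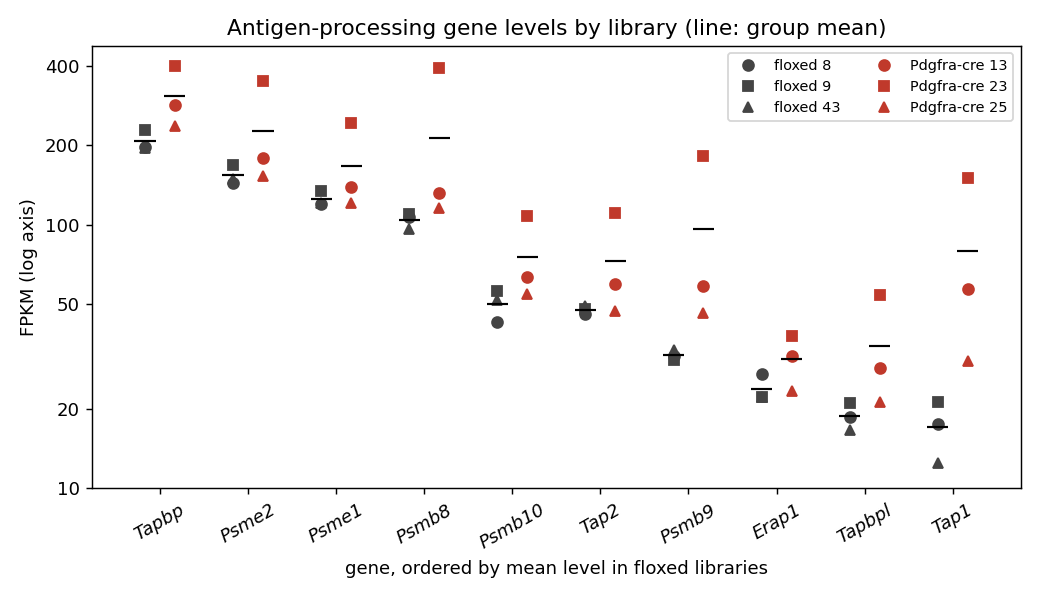
FPKM of the 10 genes in each library on a log axis, ordered by floxed mean, with floxed mice in grey, Pdgfra-cre mice in red and a line at each group mean. Library 23 (red square) is the highest point for all 10 genes, and the floxed points of Psmb9 sit between 30.6 and 33.4 FPKM.

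The rank of the Pdgfra-cre mice among themselves was the same for every gene, in the order 23, 13, 25. Library 23 had the highest level of all 10 genes and library 13 the next highest of all 10, and each of these libraries exceeded every floxed library for all 10. Library 25 exceeded the floxed libraries for 5 genes (Tap1, Psmb9, Psmb8, Tapbp and Tapbpl) and lay within their range for the other 5. Relative to the floxed mean, the ratios in library 23 ran from 1.59 (Erap1) to 8.76 (Tap1) with a median of 2.31. They ran from 1.11 (Psme1) to 3.34 (Tap1) in library 13, with a median of 1.29, and from 0.966 (Psme1) to 1.77 (Tap1) in library 25, with a median of 1.10. Tap1 and Psmb9 thus had the largest ratios in each of the 3 mice. Within the Pdgfra-cre group the highest library exceeded the lowest by 1.62 to 4.94 times, and within the floxed group by 1.07 to 1.71 times. Without library 23 all 10 fold changes were still above 0, the median was 0.24, and the groups did not overlap for 5 of 10 genes, against 12.6% of the genes tested without that library. Without it the log2 fold changes were Tap1 1.27, Psmb9 0.69, Tapbpl 0.39, Tapbp 0.32, Psmb8 0.24, Psmb10 0.23, Erap1 0.19, Tap2 0.15, Psme2 0.11 and Psme1 0.051. The groups did not overlap for 8 of 10 without floxed library 9 (14.6% of the genes tested then) and for 10 of 10 without Pdgfra-cre library 25 (14.8%).

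**Figure D2:**
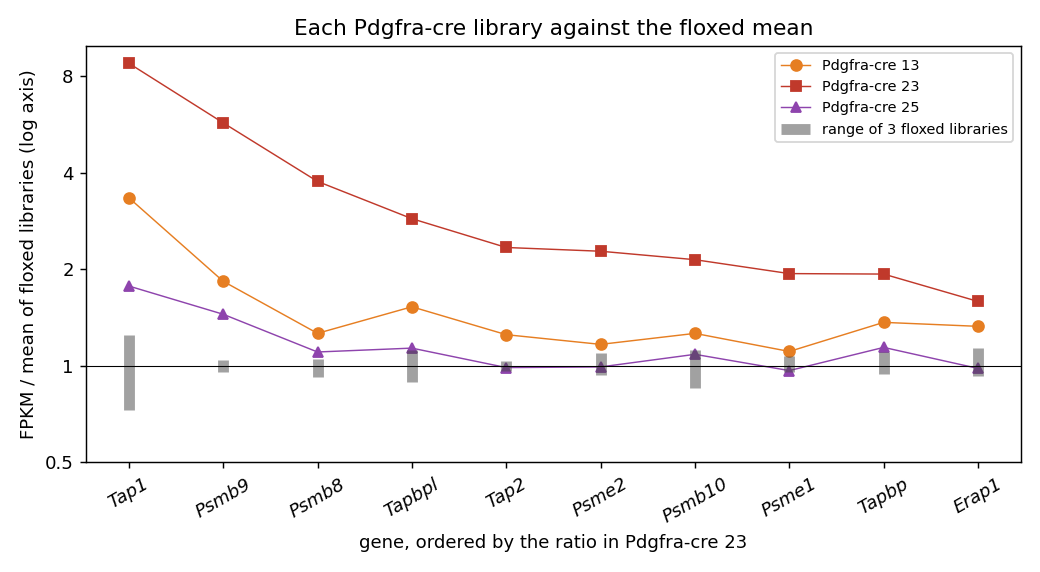
Level of each gene in the 3 Pdgfra-cre libraries divided by the floxed mean, on a log axis, with a grey bar for the range of the 3 floxed libraries. The 3 lines are stacked in the order 23, 13, 25, and all 3 are highest at Tap1, at 8.76, 3.34 and 1.77.

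The catalytic subunits of the immunoproteasome differed in their baseline and in their spread. Psmb8, which encodes the chymotrypsin-like subunit LMP7, had 107, 109 and 96.2 FPKM in floxed libraries 8, 9 and 43, and 132, 391 and 115 in Pdgfra-cre libraries 13, 23 and 25. The groups did not overlap, but libraries 13 and 25 lay close to the controls and only library 23 lay far above them (log2 fold change 0.79 ± 0.38 SE, adjusted p = 0.501). Psmb9, which encodes LMP2, had 31.9, 30.6 and 33.4 FPKM in floxed and 58.6, 183 and 46.3 in Pdgfra-cre libraries. Here all 3 Pdgfra-cre mice stood clear of a tight floxed group (32.0 ± 1.43 against 95.8 ± 75.4 FPKM, SD, n = 3 each), with a log2 fold change of 1.29 ± 0.41 (SE) and an adjusted p of 0.28. Psmb10, which encodes the trypsin-like subunit MECL-1, had 42.8, 56.2 and 51.7 FPKM in floxed and 63.3, 107 and 54.5 in Pdgfra-cre libraries. Library 25 lay below floxed library 9, so the groups overlapped (log2 fold change 0.52 ± 0.23 SE, adjusted p = 0.461).

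Each of these subunits replaces a constitutive one, and their ratio within a library does not depend on how libraries are scaled. Psmb8 was at 0.773, 0.880 and 0.797 times the level of Psmb5 in floxed libraries 8, 9 and 43, and at 0.949, 2.65 and 0.913 times in Pdgfra-cre libraries 13, 23 and 25. Psmb9 was at 0.155, 0.147 and 0.175 times the level of Psmb6 in floxed, and at 0.317, 0.825 and 0.261 times in Pdgfra-cre libraries. Neither ratio overlapped between the groups, and library 23 was the only one in which Psmb8 exceeded its constitutive counterpart. Psmb10 exceeded Psmb7 in all 6 libraries, by 1.28, 1.92 and 1.79 times in floxed and 1.6, 1.91 and 1.61 times in Pdgfra-cre libraries, which all lay within the floxed range.

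The geometric mean ratio was 1.62 times higher in Pdgfra-cre for Psmb8 to Psmb5 and 2.58 times higher for Psmb9 to Psmb6 (exact two-sided permutation p = 0.1 for each, 0.15 after Benjamini-Hochberg adjustment over the 3 ratios). For Psmb10 to Psmb7 it was 1.04 times higher (exact permutation p = 0.9, adjusted 0.9), and its direction turned without floxed library 8 or Pdgfra-cre library 23. With 3 mice against 3 this test cannot give a p below 0.1. Without library 23 the log2 difference was 0.19 in place of 0.69 for Psmb8 to Psmb5 and 0.86 in place of 1.37 for Psmb9 to Psmb6. Taken over the 3 pairs, the immunosubunits held 32.5%, 35.2% and 34.7% of the summed catalytic subunit FPKM in floxed libraries 8, 9 and 43. That share was 41.1%, 61.5% and 39.1% in Pdgfra-cre libraries 13, 23 and 25, so even library 25 lay above the controls.

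**Figure D3:**
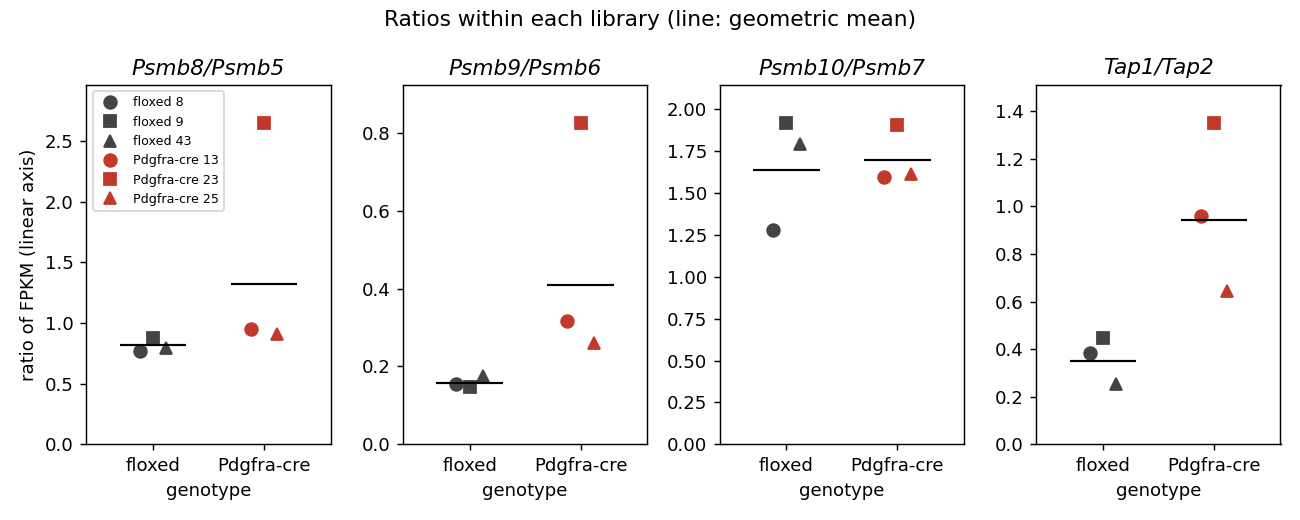
Ratio of FPKM within each library for the 3 pairs of immunosubunit and constitutive subunit and for Tap1 to Tap2, on linear axes from 0, with a line at each geometric mean. The groups are apart for Psmb8/Psmb5, Psmb9/Psmb6 and Tap1/Tap2, and they overlap for Psmb10/Psmb7.

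The PA28 activator genes were abundant in every library and differed little outside library 23. Psme1, which encodes the alpha subunit, had 120, 134 and 120 FPKM in floxed and 138, 242 and 121 in Pdgfra-cre libraries (log2 fold change 0.35 ± 0.23 SE, adjusted p = 0.642). Psme2, which encodes the beta subunit, had 144, 168 and 149 FPKM in floxed and 179, 349 and 152 in Pdgfra-cre libraries (0.47 ± 0.26 SE, adjusted p = 0.576). For both genes library 25 lay inside the floxed range. Psme2 exceeded Psme1 in all 6 libraries, by 1.2 to 1.25 times in floxed and by 1.26 to 1.44 times in Pdgfra-cre libraries. Without library 23 the log2 fold changes were 0.051 for Psme1 and 0.11 for Psme2.

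The TAP transporter is a dimer of TAP1 and TAP2, and its subunit genes differed unequally. Tap1 had 17.5, 21.3 and 12.5 FPKM in floxed and 57.1, 150 and 30.3 in Pdgfra-cre libraries. Every Pdgfra-cre mouse lay above every floxed mouse, and the range within the Pdgfra-cre group was 4.94 times from lowest to highest. The log2 fold change was 1.87 ± 0.47 (SE), with a 95% interval of 0.82 to 2.93 and an adjusted p of 0.198. Without Pdgfra-cre library 23 it was 1.27 (adjusted p = 0.197). Without Pdgfra-cre library 25, Tap1 passed (log2 fold change 2.40, adjusted p = 0.0497), as the only one of the 10 genes and one of 12 genes called higher in that setting (0.107% of those tested). Tap2 had 45.8, 47.8 and 49.1 FPKM in floxed and 59.5, 111 and 47.0 in Pdgfra-cre libraries. Libraries 13 and 23 stood above a narrow floxed range, and library 25 stood inside it (log2 fold change 0.50 ± 0.26 SE, adjusted p = 0.548).

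Tap1 was the lower of the TAP pair in all floxed libraries and in Pdgfra-cre libraries 13 and 25, and the higher in library 23. The ratio of Tap1 to Tap2 was 0.382, 0.446 and 0.255 in floxed libraries 8, 9 and 43, and 0.961, 1.35 and 0.646 in Pdgfra-cre libraries 13, 23 and 25. The ranges did not overlap, and the geometric mean was 2.68 times higher in Pdgfra-cre. This ratio was added after the values were seen and was given no test.

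Tapasin bridges TAP and the class I molecule, and its relative TAPBPR edits the bound peptide. Tapbp, which encodes tapasin, was the most abundant of the 10 genes in each library, with 197, 229 and 195 FPKM in floxed and 283, 400 and 236 in Pdgfra-cre libraries. The groups did not overlap, although library 25 exceeded floxed library 9 by little (log2 fold change 0.53 ± 0.18 SE, adjusted p = 0.306). Tapbpl, which encodes TAPBPR, was at 18.6, 21.1 and 16.7 FPKM in floxed and 28.7, 54.0 and 21.4 in Pdgfra-cre libraries. Its groups too were apart by a narrow margin (log2 fold change 0.75 ± 0.29 SE, adjusted p = 0.368). Tapbpl stood at 0.0857 to 0.0947 times the level of Tapbp in floxed and at 0.0903 to 0.135 times in Pdgfra-cre libraries.

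Erap1, which encodes the aminopeptidase that trims peptides in the endoplasmic reticulum, had the smallest fold change of the 10. It had 27.2, 22.2 and 22.3 FPKM in floxed and 31.7, 37.9 and 23.4 in Pdgfra-cre libraries. Libraries 13 and 23 lay above all floxed mice and library 25 lay among them (log2 fold change 0.34 ± 0.19 SE, 95% interval -0.078 to 0.77, adjusted p = 0.565).

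In floxed mice the 10 genes spanned a wide range of baseline levels. In descending order of mean FPKM (± SD, n = 3) they were Tapbp 207 ± 19.3, Psme2 154 ± 12.8, Psme1 125 ± 8.19, Psmb8 104 ± 7.06, Psmb10 50.2 ± 6.82, Tap2 47.6 ± 1.66, Psmb9 32.0 ± 1.43, Erap1 23.9 ± 2.86, Tapbpl 18.8 ± 2.17 and Tap1 17.1 ± 4.42. Of neighbours in this order, the floxed ranges of Psmb10 and Tap2 overlapped, as did those of Tapbpl and Tap1, and the other neighbours were apart. Tapbpl, not Tap1, was the lowest in floxed library 9. The order shifted in all Pdgfra-cre libraries, where Tap1 stood above Erap1 and Tapbpl. Tapbpl was the lowest in libraries 13 and 25. In library 23, Psmb8 (391 FPKM) stood next to Tapbp (400) and Erap1 (37.9) was the lowest.

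The median fold changes of lists of the rest of the proteasome lay nearer to 0, though the difference between these lists was not tested. Psmb7 and Psmg3 had larger fold changes than Psme1 and Erap1 of the 10 genes. Of the constitutive catalytic subunits, Psmb5 had 139, 124 and 121 FPKM in floxed and 139, 148 and 126 in Pdgfra-cre libraries (log2 fold change 0.10, adjusted p = 0.819). Psmb6 had 206, 208 and 191 in floxed and 185, 221 and 177 in Pdgfra-cre libraries (-0.06, adjusted p = 0.906). Psmb7, the counterpart of Psmb10, had the largest fold change of the 3, with 33.5, 29.3 and 28.8 FPKM in floxed and 39.7, 56.4 and 33.8 in Pdgfra-cre libraries. Its groups did not overlap, with higher values in Pdgfra-cre, as for 8.07% of all tested genes (log2 fold change 0.46, adjusted p = 0.393). Psmb7 was the only 1 of the 3 with an unadjusted limma p under 0.05, as were 5.47% of all tested genes with higher values. Of the 11 other subunits of the barrel, 10 lay above 0, the median log2 fold change was 0.078 and the highest 0.21 (Psma2), and 0 had an unadjusted p under 0.05. Psmb2, the most abundant of them, had means of 227 and 261 FPKM. Of 18 genes of the regulatory particle that feeds the barrel, 13 were above 0 with a median of 0.031. Their values ran from -0.16 (Psmd4) to 0.10, and 0 had an unadjusted p under 0.05. The groups did not overlap for Psmd4, lower in Pdgfra-cre, as for 8.29% of all tested genes. Psmc3, the most abundant of the 18, had means of 127 and 126 FPKM. Of 8 other activators, inhibitors and assembly factors, 7 were above 0 (median 0.19). Psmg3, an assembly chaperone, had the lowest p of them (log2 fold change 0.38, adjusted p = 0.431). It was the only 1 of the 8 with an unadjusted limma p under 0.05. It was also the only 1 whose groups did not overlap, with higher values in Pdgfra-cre. The proteasome maturation factor gene Pomp had means of 136 and 160 FPKM.

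**Figure D4:**
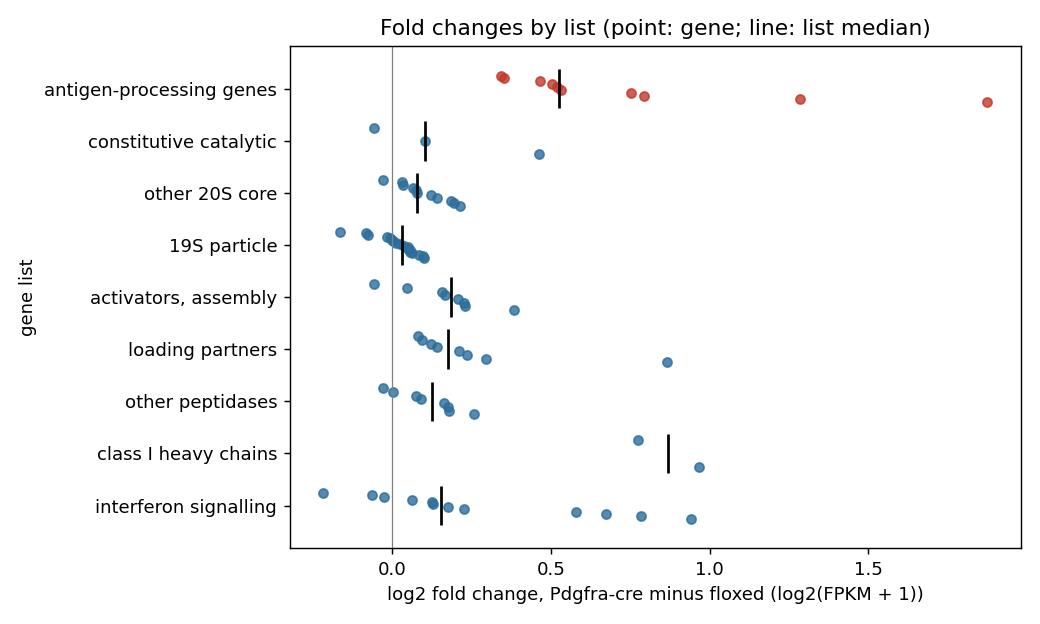
Log2 fold change of each tested gene (point) by list, with a line at the list median, for the 10 antigen-processing genes in red and 8 comparison lists in blue. The 10 genes range from 0.34 to 1.87, and the 18 genes of the 19S particle from -0.16 to 0.10.

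Chaperones and other peptidases of the pathway had small fold changes, and genes of the class I molecule itself had larger ones. Of 8 partners of the loading complex and glycoprotein quality control, 8 were above 0 with a median of 0.18. The highest was B2m, the class I light chain, with 1735, 1859 and 1379 FPKM in floxed and 2311, 6531 and 1782 in Pdgfra-cre libraries (log2 fold change 0.86, adjusted p = 0.479). Library 25 lay within the floxed range of B2m. Hspa5, the most abundant, had means of 2523 and 2904 FPKM, and the remaining fold changes ran up to 0.30 (Calr). Of 8 peptidases of the cytosol and endosome that can also trim peptides, 7 were above 0 with a median of 0.13, and 0 had an unadjusted p under 0.05. Npepps had the lowest p (log2 fold change 0.26, adjusted p = 0.64). Its groups did not overlap, with higher values in Pdgfra-cre, as for 8.07% of all tested genes. Blmh, the most abundant, had means of 30.9 and 32.2 FPKM. The class I heavy chain genes H2-K1 (484 and 1065 FPKM as group means) and H2-D1 (1782 and 3339) had log2 fold changes of 0.96 and 0.77 (adjusted p = 0.403 and 0.502), and their groups overlapped. Heavy chain genes resemble each other, and the counting may have split reads among them.

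Regulators of these genes were listed alongside. Jak2, a kinase of the interferon gamma receptor, had 7.69, 6.85 and 5.45 FPKM in floxed and 10.4, 19.7 and 12.2 in Pdgfra-cre libraries (log2 fold change 0.94, adjusted p = 0.21). Irf1, an interferon-induced transcription factor, had 318, 253 and 342 in floxed and 454, 722 and 344 in Pdgfra-cre libraries (0.67, adjusted p = 0.332). Neither overlapped between groups, both with higher values in Pdgfra-cre, as for 8.07% of all tested genes. Irf1 in library 25 was close to floxed library 43. Nlrc5, the transactivator of class I genes, did not meet the filter, with 0.994, 0.772 and 0.188 FPKM in floxed and 2.02, 6.97 and 0.583 in Pdgfra-cre libraries. Of 12 tested genes of this list, 9 were above 0 (median 0.15), and 0 passed after adjustment. At an unadjusted limma p under 0.05, 4 were higher (Stat2, Irf1, Irf9 and Jak2), as were 5.47% of all tested genes. With lower values there were 0, against 5.49%. The receptor genes Ifngr1 (-0.22), Ifngr2 (0.064), Ifnar1 (0.23) and Ifnar2 (0.13) had small log2 fold changes. The groups did not overlap for Ifngr1, lower in Pdgfra-cre (adjusted p = 0.56 with limma), as for 8.29% of all tested genes.

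The mean profile of the 10 genes over the 6 libraries was compared with 7870 other genes with a mean of at least 5 FPKM. The most alike were Stat2, C1s1, Ifi27l2a, 2210039B01Rik and Sqstm1, with Pearson r of 0.999, 0.999, 0.997, 0.997 and 0.996 over 6 libraries and Spearman rho of 1 for the first 3 and 0.943 for the others. Stat2, a transcription factor of the type I interferon response, had 16.7, 19.2 and 16.2 FPKM in floxed and 27, 52.1 and 20.1 in Pdgfra-cre libraries. C1s1, a complement protease gene, had 982, 1061 and 936 FPKM in floxed and 1262, 1962 and 1073 in Pdgfra-cre libraries. In both, as in the 10 genes, library 23 was highest and library 13 next. Of the 7870 genes, 281 had an r above 0.9, and all points share the same libraries, of which library 23 carries most of the variation. S100a8, a neutrophil gene, had an r of 0.926 and Pdgfra an r of -0.979.

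Markers of other cells were read beside these results. The 6 genes shared by leukocytes summed to 6.92 to 9.57 FPKM in floxed and to 14.2, 22.4 and 8.13 in Pdgfra-cre libraries 13, 23 and 25. Ptprc, which encodes CD45, was at 1.04 FPKM in library 23 and at 0 to 0.498 in the other 5. Of 8 neutrophil markers found, 5 were highest in library 23, led by S100a8 (94.7 FPKM against 0 to 9.42 elsewhere), while Csf3r was at 0.668 there, and Ltf was at 0 in all libraries. The order 23, 13, 25 of the Pdgfra-cre mice was the same for the summed neutrophil and leukocyte markers as for the antigen-processing genes. The summed macrophage and dendritic cell, epithelial and red blood cell markers had this order too. The summed lymphocyte, endothelial and fibroblast markers did not. In the leukocyte sum of library 13, the single gene Arhgdib held 11.9 of the 14.2 FPKM. The summed macrophage and dendritic cell markers were 22.2 to 32.2 FPKM in floxed and 18.2 to 42.5 in Pdgfra-cre libraries, of 10 genes, with Flt3 at 0 in all. Of 8 lymphocyte markers found, which sum to 0.735 to 1.49 FPKM over all libraries, none reached a mean of 1 FPKM. Of 6 endothelial markers, 5 had a mean under 1 FPKM, with Cdh5 at 0 in all libraries and Pecam1 (CD31) at 0.0741 to 0.856, and Tek was at 27.1 to 41.5. Of 6 epithelial markers 4 had a mean under 1 FPKM, and Epcam was at 1.11 in library 23 and 0 to 0.445 elsewhere. Krt8, another epithelial marker, had 0.0653, 7.01 and 0.593 FPKM in floxed and 5.85, 11.5 and 2.33 in Pdgfra-cre libraries, and so was highest in library 23 as well (log2 fold change 1.46, adjusted p = 0.514). Lgals4, also epithelial, was at 2.81 to 8.23 FPKM over all libraries. The 4 red blood cell markers found summed to 50.4 to 130 FPKM in floxed libraries and to 71.2, 168 and 43.5 in Pdgfra-cre libraries 13, 23 and 25. The part of these cells in the levels of the 10 genes was not tested.

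The sequences around the gene starts are shown for genes in which an interferon-linked motif was found, and for Tap1, which had the largest fold change. Of the 10 genes, 8 had a promoter window in the RefSeq table (build GRCm38.p6), each covering 250 bases before and 50 bases from the annotated start, in 9 windows. Tap2 and Tapbpl had none. The RefSeq starts can differ from the GENCODE ones. The windows of Psmb8, Psmb9, Psme1, Tapbp and Erap1 lie wholly within the GENCODE spans given above. Both strands were searched for GAAANNGAAA and GAAANNNGAAA, cores of the interferon-stimulated response element (ISRE), for TTCNNNGAA, the core of the gamma-activated site (GAS), and for the GC box GGGCGG. Of all 32851 windows of this length, 3.44% held the first, 2.75% the second, 8.30% the GAS core and 35.7% the GC box. None of these motifs overlapped another in the windows shown. Capitals mark a match to an ISRE or GAS core, and in Tap1 the GC box, here on the minus strand. The windows are Erap1 at chr13:74639603-74639902, plus strand, Psme1 at chr14:55578244-55578543, plus strand, Psmb8 at chr17:34197945-34198244, plus strand and Tap1 at chr17:34187306-34187605, plus strand, written 5′ to 3′ on the strand of the gene.
Erap1: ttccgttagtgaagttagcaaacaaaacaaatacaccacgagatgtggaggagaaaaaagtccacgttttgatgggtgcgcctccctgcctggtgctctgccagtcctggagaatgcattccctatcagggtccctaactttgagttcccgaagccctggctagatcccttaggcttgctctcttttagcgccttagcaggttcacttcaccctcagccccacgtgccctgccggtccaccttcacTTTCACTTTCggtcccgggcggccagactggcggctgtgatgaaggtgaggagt
Psme1: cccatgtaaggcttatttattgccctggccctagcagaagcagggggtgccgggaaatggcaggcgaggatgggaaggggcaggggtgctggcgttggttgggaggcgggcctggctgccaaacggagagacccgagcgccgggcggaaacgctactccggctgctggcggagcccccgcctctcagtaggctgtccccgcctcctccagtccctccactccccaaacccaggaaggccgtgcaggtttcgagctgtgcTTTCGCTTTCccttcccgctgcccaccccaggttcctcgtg
Psmb8: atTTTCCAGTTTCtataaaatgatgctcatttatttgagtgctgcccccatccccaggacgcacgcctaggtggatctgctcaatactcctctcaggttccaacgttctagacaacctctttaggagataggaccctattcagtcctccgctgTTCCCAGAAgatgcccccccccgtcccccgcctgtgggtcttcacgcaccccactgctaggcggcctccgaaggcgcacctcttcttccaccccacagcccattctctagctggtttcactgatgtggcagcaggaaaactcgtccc
Tap1: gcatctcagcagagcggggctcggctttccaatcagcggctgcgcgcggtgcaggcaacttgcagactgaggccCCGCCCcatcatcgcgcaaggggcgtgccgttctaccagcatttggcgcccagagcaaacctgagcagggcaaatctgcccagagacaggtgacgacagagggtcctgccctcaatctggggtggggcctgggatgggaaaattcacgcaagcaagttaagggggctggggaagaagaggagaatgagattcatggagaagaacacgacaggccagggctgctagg

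An ISRE core with a gap of 2 bases was found in 2 genes, on the minus strand of each. In Erap1 it began 4 bases before the annotated start and spanned it. In Psme1 it began 9 bases past the first transcribed base. Psmb8 held a core with a gap of 3 bases that began 248 bases before the start, and a GAS core that began 97 bases before it. The windows of Tap1 and Psmb9, which are read in opposite directions, share 275 bases. No match to the ISRE or GAS letters was found in that shared stretch, nor in the windows of Psmb10, Psme2 or Tapbp, which says only that these letters are not in these windows. Of the genes with an ISRE core, Erap1 and Psme1 had log2 fold changes of 0.34 and 0.35, the smallest of the 10, and Psmb8 had 0.79. Of those without an ISRE or GAS core, Tap1 and Psmb9 had the largest of the 10 (1.87 and 1.29). Tapbp, Psmb10 and Psme2 had 0.53, 0.52 and 0.47. Tapbpl (0.75) and Tap2 (0.50) had no window to search. A link between motifs and fold changes was not tested.

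**Figure D5:**
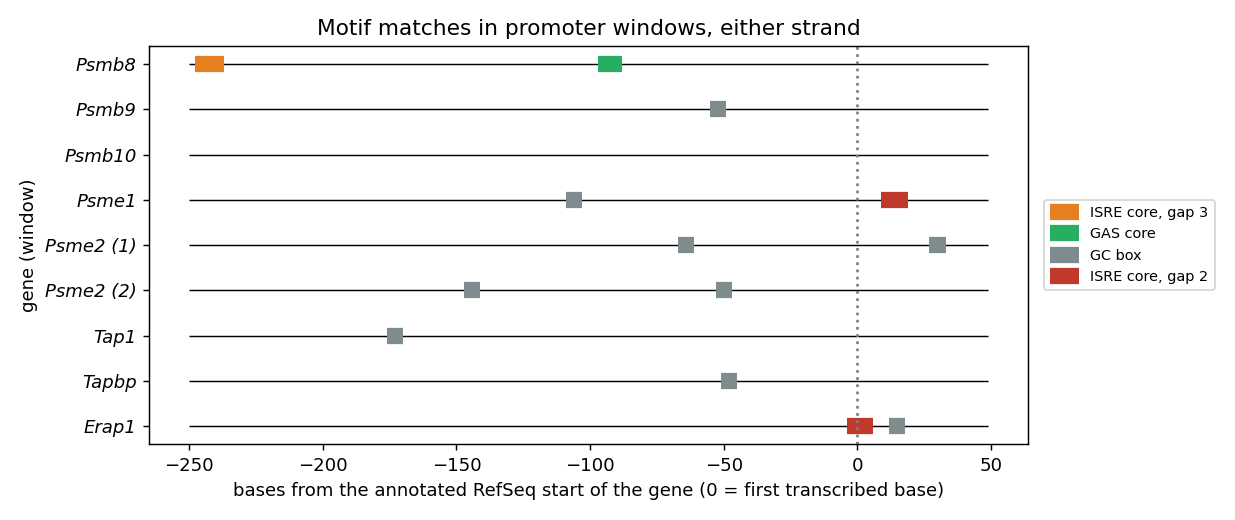
Positions of the motif matches on either strand in the 9 promoter windows of 8 genes, in bases from the annotated RefSeq start, drawn to scale. ISRE cores are at or near the RefSeq start of Erap1 and Psme1, and the core of Psmb8 begins 248 bases before its RefSeq start. The Psmb10 window holds no match.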

How the data were processed

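Gene-level FPKM, 1 table per library, were used as the authors deposited them. TopHat2 2.1.1, Bowtie2 2.2.8, SAMtools 0.1.18, Cuffdiff 2.2.1 and the mm10 build are named in the submitters' processing notes. Options, annotation and depth are not given in the sources used here. Cuffdiff can divide reads between similar or overlapping genes.

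Of 24346 genes, 11429 that reached 1 FPKM in 3 or more of the 6 libraries were tested between genotypes with limma 3.58.1 (R 4.3.3) on log2(FPKM + 1), with a variance trend and Benjamini-Hochberg adjustment over all tested genes. Adjusted p values of genes are limma's. The files gave FPKM, so no count test was run. Ratios were tested with an exact permutation test (scipy 1.17.1). The labels give each library its own mouse number and no batch. The fit was tested on simulated data with the same spread in both groups and with changes larger than those of the 10 genes. That check does not cover the wider spread within the Pdgfra-cre group. The genes, comparison lists, marker lists and tests were chosen with earlier results of these data known. Besides the 10 genes, the text names the constitutive counterparts, the most abundant and the lowest-p gene of each comparison list, class I genes, Irf1, Nlrc5, genes of the sort and the 5 genes of most similar profile. Of the genes this rule names, 1 is not reported here. Others were named after their values were seen. Gene locations come from GENCODE M21 and promoters from RefSeq. Alternatives were other pseudocounts (0.1 and 5), filters, scalings and variance settings, and leaving out each library.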

Additional observations from a re-analysis of the deposited data

How the results depend on the processing

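No paired analysis was possible because the labels give nothing by which mice of the 2 groups could be paired. All 10 log2 fold changes stayed above 0 under all 16 alternatives. Their median was 0.43 after rescaling to TPM, 0.48 under quantile normalization and 0.45 with array weights. It was 0.24 without Pdgfra-cre library 23 and 0.74 without library 25. After rescaling to TPM the median over all tested genes was lower too, at -0.090 against 0.0012 with the values as deposited. Leaving out 1 library at a time, 5 to 10 of the 10 genes had groups that did not overlap (8 without floxed library 9 and 10 without Pdgfra-cre library 25, where 14.6% and 14.8% of all tested genes did so with higher values, against 8.07% with all libraries), and 0 to 1 passed an adjusted p of 0.05. The 1 was Tap1 without Pdgfra-cre library 25 (adjusted p = 0.0497, against 0.0497 to 0.491 over all its alternatives with limma), where 31 genes were called over all, against 0 with all libraries. The log2 difference of the Psmb10 to Psmb7 ratio ran from -0.13 to 0.17 when 1 library was left out, and was below 0 without floxed library 8 and without Pdgfra-cre library 23 (-0.030). The cause was not tested. The ratios of Psmb8 to Psmb5 and of Psmb9 to Psmb6 kept their direction under all alternatives. With 3 mice a group, the spread within the Pdgfra-cre group limits precision, and depth was known only roughly.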
